A study of Mus musculus with 2 samples.

Results

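The regions described here are short peaks of 5-hydroxymethylcytosine (5hmC) in mouse kidney DNA chosen by a high ratio of antibody signal to input. They are the peaks on chromosomes 1 to 19 that the authors called with a width under 1000 bp and whose fold of hMeDIP over input reached 8. The fold is the number of hMeDIP fragments with a midpoint in the peak plus 1, divided by the number of input fragments plus 1, and multiplied by all input fragments over all hMeDIP fragments (0.728). This rule kept 4562 of 34152 autosomal peaks under 1000 bp, or 13.4%, out of 92654 peaks in the whole list. The members were thus selected on their width and on their hMeDIP and input counts. The remaining 29590 short autosomal peaks serve as the comparison.

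The DNA came from kidneys of male C57BL/6 mice, an inbred laboratory strain, at an age of 6 weeks. The groups are 1 hMeDIP library, pulled down with an antibody against 5hmC, and 1 input library of kidney DNA of the same strain, sex and age to which no antibody was applied. The number of animals behind each library is not stated. With 1 library per group nothing is replicated, so the values below compare these libraries, and no difference was tested. Intervals are exact 95% Clopper-Pearson or Poisson intervals that cover counting error only. Sequenced copies of 1 molecule cannot be told from separate molecules here.

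5hmC arises when TET enzymes oxidise 5-methylcytosine. It is an intermediate on a route to unmethylated cytosine, and it also persists as a mark of its own along the bodies of transcribed genes and at enhancers of differentiated tissues. In hMeDIP the antibody recovers DNA fragments that carry the mark, so a short peak marks a small stretch from which many fragments were recovered, and the input shows how often the same stretch is sequenced without the antibody. The position files list 11424027 hMeDIP fragments and 8316507 input fragments.

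A high fold can come from many hMeDIP fragments or from few input fragments. In the short high-fold peaks it came mostly with few input fragments. They held 90332 hMeDIP and 1628 input fragments over 3496 kb. Their hMeDIP density was 25.8 fragments per kb (25.7 to 26.0), against 23.8 (23.8 to 23.9) in the other short peaks, 1.08 times as much. Their input density was 0.466 fragments per kb (0.443 to 0.489), against 3.39 (3.36 to 3.41) in the other short peaks, 0.137 times as much. The median number of hMeDIP fragments in a peak was 18 in both sets, with quartiles of 15 and 23 in the high-fold set and 16 and 21 in the other set. The median number of input fragments was 0 in the high-fold set and 2 in the other set. Both counts enter the rule, so these values describe the selection and support nothing beyond it. The name "strong 5hmC enrichment" therefore fits the ratio of these peaks better than their hMeDIP signal, and they are called short high-fold peaks from here on.

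The set fell into 2 kinds of peak. Of the 4562, 3120 (68.4%, 67.0 to 69.7) held no input fragment at all, and 1442 (31.6%) held 1 to 4. A short peak without input fragments enters the set with 10 or more hMeDIP fragments, and the lowest number in any short peak was 12, so all short autosomal peaks without input fragments are members whatever their hMeDIP signal. With 1 input fragment 21 hMeDIP fragments are needed, with 2 input fragments 32, and with 3 input fragments 43. Membership dropped accordingly to 1275 of 7242 short peaks with 1 input fragment (17.6%), 149 of 9113 with 2 (1.64%), 17 of 7474 with 3 (0.227%) and 1 of 4154 with 4.

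The peaks without input fragments did not carry more hMeDIP signal than other short peaks. Their hMeDIP density was 23.2 fragments per kb (23.0 to 23.4), 0.975 times that of the other short peaks (23.8, 23.8 to 23.9). Their hMeDIP counts ran from 12 to 46 with a median of 16, against 12 to 60 with a median of 18 in the other short peaks. Of them, 1747 (56.0%, 54.2 to 57.7), lay below the median hMeDIP density of all short peaks (23.0 per kb), as did 51.4% (50.8 to 51.9) of the other short peaks. No ratio can be given against 0 input fragments. The lower bound of its interval had a median of 2.81 over these peaks, and it was 3 or more in 1356 of them (43.5%, 41.7 to 45.2).

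The peaks with 1 to 4 input fragments carried more hMeDIP signal, which the rule itself asks of them. It admits none of this kind with fewer than 21 hMeDIP fragments, so the values here describe the selection. The hMeDIP density of these peaks was 30.6 fragments per kb (30.3 to 30.9), 1.28 times that of the other short peaks. Their hMeDIP counts ran from 21 to 73 with a median of 24. Their input density was 1.32 fragments per kb (1.26 to 1.39), 0.391 times that of the other short peaks. Pooled over these 1442 peaks, the share of hMeDIP fragments was 16.8 times the share of input fragments (16.0 to 17.7), against 5.13 (5.09 to 5.16) in the other short peaks. Among them, the 167 peaks with 2 or more input fragments had an hMeDIP density of 43.3 fragments per kb and a pooled ratio of 13.2 (11.8 to 14.7).

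**Figure D1:**
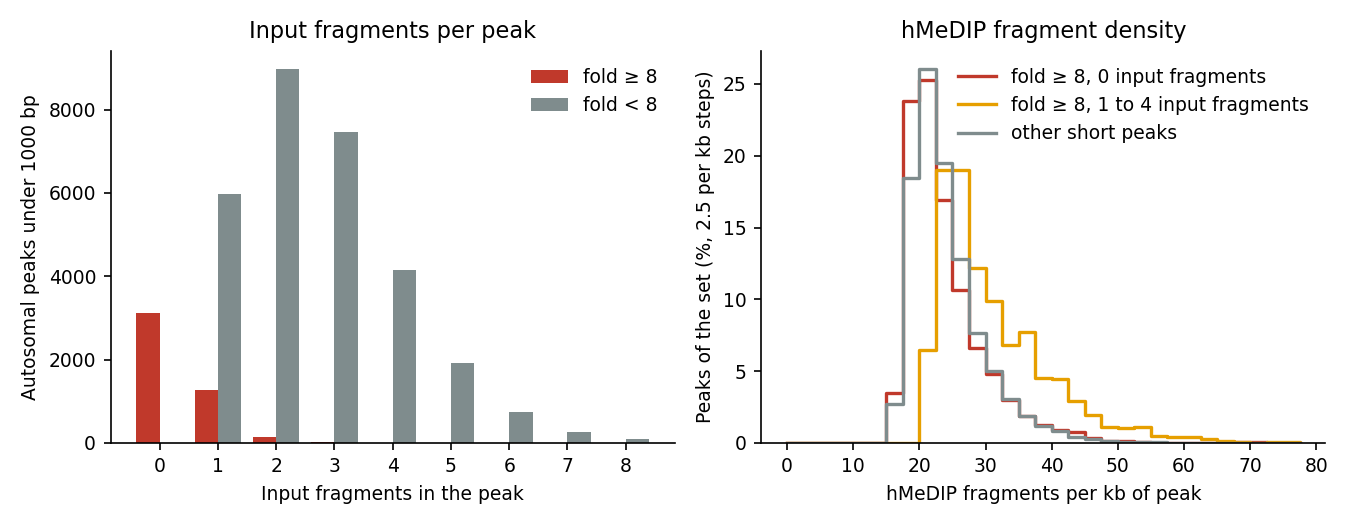
Left: number of autosomal peaks under 1000 bp by the input fragments in the peak, for peaks with a fold of 8 or more (red) and under 8 (grey). All 3120 peaks without input fragments are in the high-fold set. Right: share of the peaks of each set by hMeDIP fragments per kb, in steps of 2.5 per kb. The high-fold peaks without input fragments (red) overlie the other short peaks (grey). Those with 1 to 4 input fragments (orange), which the rule admits only with 21 or more hMeDIP fragments, lie further right.

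Ranking short peaks by hMeDIP signal alone picked largely other peaks. Among the 1000 short peaks with the highest hMeDIP density, 318 (31.8%, 28.9 to 34.8) belonged to the high-fold set, and among the top 100 it was 47. Among the top 4562, as many as the set itself holds, 990 (21.7%, 20.5 to 22.9) were members, against 13.4% of all short peaks. The median number of input fragments in each of these rankings was 3. hMeDIP density enters the fold, so some overlap is built in.

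Beside the peaks the sets were much more alike. Outside all peaks in the 5 kb window centred on the peak, the input density was 3.51 fragments per kb around high-fold peaks and 3.46 around the other short peaks. Around the high-fold peaks without input fragments it was 3.43, and around those with 1 to 4 it was 3.71. The rule does not use the sequence outside the peak. Within 250 bp of the edge, outside peaks, the input density was 3.34 per kb beside high-fold peaks, against 3.14 beside the other short peaks. From 1000 to 2000 bp it was 3.55 and 3.53. These pooled densities hide a small group with little input. A 5 kb window with 4 or fewer input fragments was found for 24 high-fold peaks (0.526%) and 23 other short peaks (0.0777%).

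hMeDIP density beside the peaks was also similar between the sets as wholes. In the first 250 bp from the edge it was 2.79 fragments per kb beside high-fold peaks and 3.14 beside the other short peaks. At 250 to 500 bp it was 6.05 and 6.35, and at 500 to 1000 bp 6.98 and 7.02, in the same order. By kind, the order changed with distance. In the first 250 bp it was 2.36 beside the peaks with 1 to 4 input fragments and 2.98 beside those without, against 3.14 beside the other short peaks. At 250 to 500 bp it was 6.16 and 5.99, against 6.35. At 500 to 1000 bp it was 7.51 and 6.75, against 7.02. At 2000 to 5000 bp it was 6.72 and 6.23, against 6.47. The ratio of hMeDIP to input share outside peaks in the 5 kb window was 1.25 (1.24 to 1.27) around high-fold peaks and 1.31 (1.302 to 1.313) around the other short peaks. Over 100 kb it was 1.22 (1.218 to 1.223) and 1.21 (1.210 to 1.212). Fragments in the peaks themselves do not enter these values, but they come from the same libraries as the rule.

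**Figure D2:**
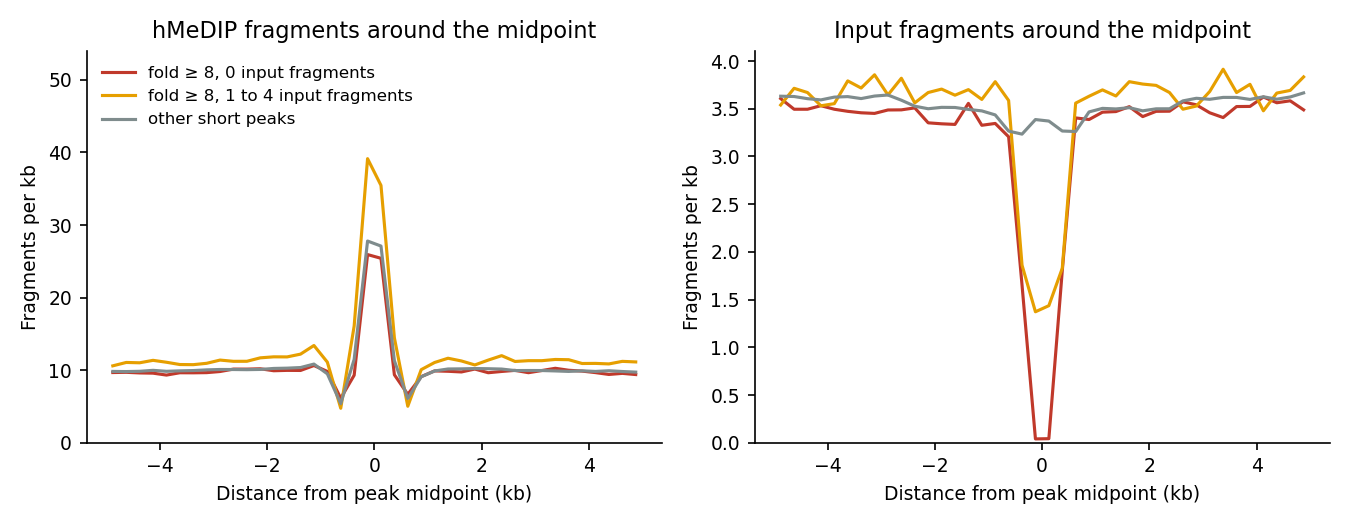
Mean fragments per kb in 250 bp steps around the peak midpoint, for hMeDIP (left) and input (right), with all fragments counted. At the 250 bp left of the midpoint the high-fold peaks without input fragments (red) reach 25.9 hMeDIP fragments per kb, those with 1 to 4 input fragments (orange) 39.1 and the other short peaks (grey) 27.8. Input drops to 0.0410 per kb in the red curve and to 1.37 in the orange curve, against 3.39 in the grey curve, and the curves come close together about 0.6 kb from the midpoint.

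When the input was taken beside the peak instead of inside it, most of the set no longer reached 8. The input density outside peaks in the 5 kb window was scaled to the width of the peak, for the 4463 members and 29123 other short peaks with at least 1000 bp of such sequence. With that input, a choice made after the values were seen, 161 high-fold peaks (3.61%, 3.08 to 4.20) and 528 other short peaks (1.81%, 1.66 to 1.97) had a fold of 8 or more, 2.05% of all short peaks measured this way. The median fold was 3.91 in the high-fold set and 3.80 in the other set. By kind, 42 of 3073 peaks without input fragments (1.37%, 0.987 to 1.84) and 119 of 1390 peaks with 1 to 4 (8.56%, 7.14 to 10.2) kept a fold of 8. Their median folds were 3.66 and 4.67. The hMeDIP count in the peak still enters this fold. The rule asked for 21 or more in the peaks with 1 to 4 input fragments, so part of that difference is built in. With the whole 5 kb window as input, peaks included, 176 members and 128 other short peaks reached 8, 0.89% of all short peaks.

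**Figure D3:**
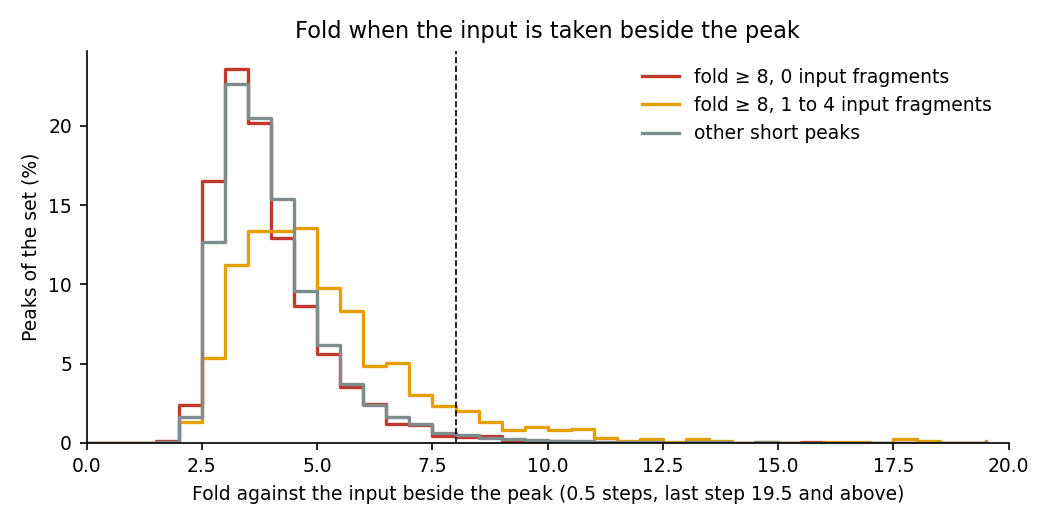
Share of the peaks of each set by fold, in steps of 0.5, when the input is taken from the sequence outside peaks in the surrounding 5 kb. The dashed line marks a fold of 8. The high-fold peaks without input fragments (red, median 3.66) and the other short peaks (grey, median 3.80) overlie each other. The high-fold peaks with 1 to 4 input fragments (orange, median 4.67), which the rule admits only with 21 or more hMeDIP fragments, lie to the right.

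Peak width went along with membership. The high-fold peaks had a median width of 785 bp and the other short peaks of 816 bp. The peaks without input fragments were the narrowest, at 741 bp, and those with 1 to 4 input fragments the widest, at 881 bp. Among autosomal peaks under 600 bp, 685 of 3561 (19.2%, 18.0 to 20.6) reached a fold of 8, and 91.5% of those had no input fragment. The share was 14.4% (13.8 to 15.0) at 600 to 800 bp and 11.5% (11.1 to 12.0) at 800 to 1000 bp, where 49.9% of the high-fold peaks had no input fragment. Among the 58167 autosomal peaks of 1000 bp or more, 6171 (10.6%) reached a fold of 8. From 1000 to 1500 bp, 523 of 33189 peaks (1.58%) lacked input fragments, and from 1500 to 2000 bp 28 of 12575 did. Among the 561 autosomal peaks of 5000 bp or more the share with a fold of 8 was again high, at 19.4% (16.2 to 23.0), with a median of 23 input fragments in the peak. Wider peaks hold more input fragments, so these shares are not independent of the rule.

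Within width classes the hMeDIP counts that the rule asks for fix part of the order, since 21 fragments are needed beside 1 input fragment. At 600 to 800 bp the hMeDIP density was 22.3 fragments per kb in the high-fold peaks without input fragments and 35.8 in those with 1 to 4, against 23.8 in the other short peaks. At 800 to 1000 bp it was 22.1 and 29.0, against 23.3. Under 600 bp it was 29.5 and 43.7, against 29.8. Of the peaks with 1 to 4 input fragments, 73.4% were 800 to 1000 bp wide, and 58 were under 600 bp.

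**Figure D4:**
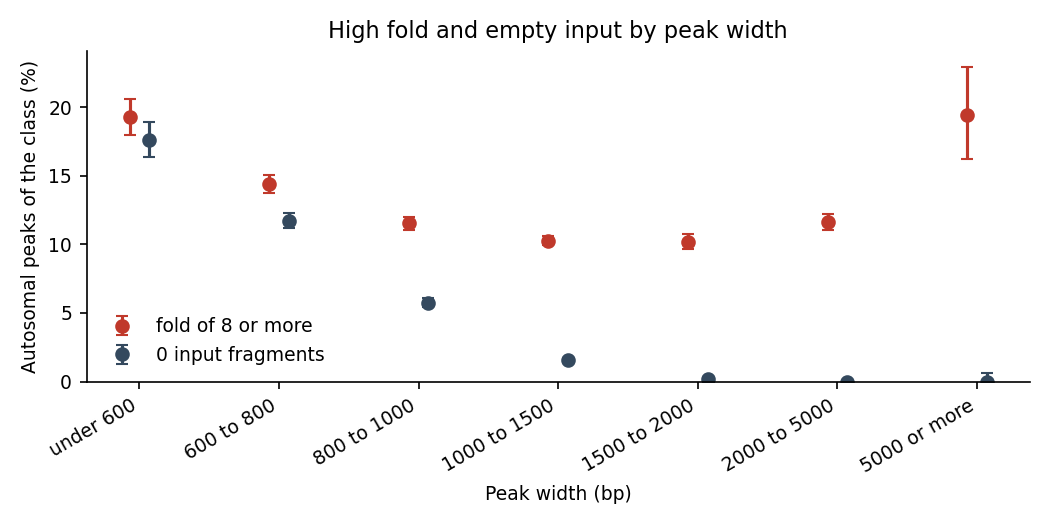
Share of autosomal peaks with a fold of 8 or more (red) and with 0 input fragments (dark blue) by peak width, with exact 95% intervals. Both shares are highest in the narrowest class, at 19.2% and 17.6%, and the share with a high fold is about as high again at 5000 bp or more (19.4%).

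Neither width nor fold uses the place of a peak relative to other peaks. The high-fold peaks had a median gap of 1915 bp to the nearest other peak (quartiles 428 and 7383 bp), and the other short peaks had 2276 bp (569 and 8014 bp). Another peak lay within 10 kb for 79.5% (78.3 to 80.6) of the high-fold peaks and 78.6% (78.2 to 79.1) of the other short peaks. A gap under 500 bp was found for 26.8% (25.5 to 28.1) of the high-fold peaks and 23.3% (22.8 to 23.8) of the other short peaks. The close gaps were more frequent among the peaks with 1 to 4 input fragments, at 32.5% (30.04 to 34.9), than among those without, at 24.2% (22.7 to 25.7). Within 50 kb the median was 10 other peaks around high-fold peaks and 9 around the other short peaks. It was 12 around the peaks with 1 to 4 input fragments and 9 around those without. The rule asks for different hMeDIP counts in the kinds, and hMeDIP density varied with the gap. It was 24.8 per kb in short peaks with a gap under 500 bp, 23.8 at 500 to 2000 bp and 24.8 over 50 kb. The differences in gap and in nearby peaks are therefore not independent of the rule.

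The kinds of high-fold peak also differed in how they followed the local density of peaks. Short peaks without input fragments made up 10.3% (8.86 to 11.9) of the short peaks with no other peak within 50 kb and 8.68% (7.92 to 9.49) of those with 20 or more, with overlapping intervals. High-fold peaks with 1 to 4 input fragments made up 3.21% (2.41 to 4.17) of the short peaks with no other peak within 50 kb, 3.60% (3.21 to 4.02) with 5 to 9, 4.44% (4.08 to 4.82) with 10 to 19 and 6.03% (5.39 to 6.72) with 20 or more. By the input beside the peak the pattern was similar. Short peaks were put into 5 classes of equal size by that density, with means of 1.95 to 5.05 fragments per kb outside peaks. There the share without input fragments was 9.44% (8.75 to 10.2) in the lowest class and 8.63% (7.97 to 9.33) in the highest. Input inside the short peaks of those classes ran from 2.88 per kb in the lowest to 3.22 per kb in the highest. The share with 1 to 4 input fragments and a high fold was 3.77% (3.32 to 4.25) in the lowest class and 6.00% (5.44 to 6.59) in the highest. The short peaks of the classes also differed in quantities that the rule uses. With no other peak within 50 kb their median width was 764 bp, and with 20 or more it was 824 bp. Their hMeDIP density was 24.8 per kb in both of these classes. From the lowest to the highest class of input beside the peak, the hMeDIP density ran from 23.1 to 26.0 per kb. These shares are therefore not independent of the rule. Whether the surroundings bear on the call of these peaks was not tested.

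**Figure D5:**
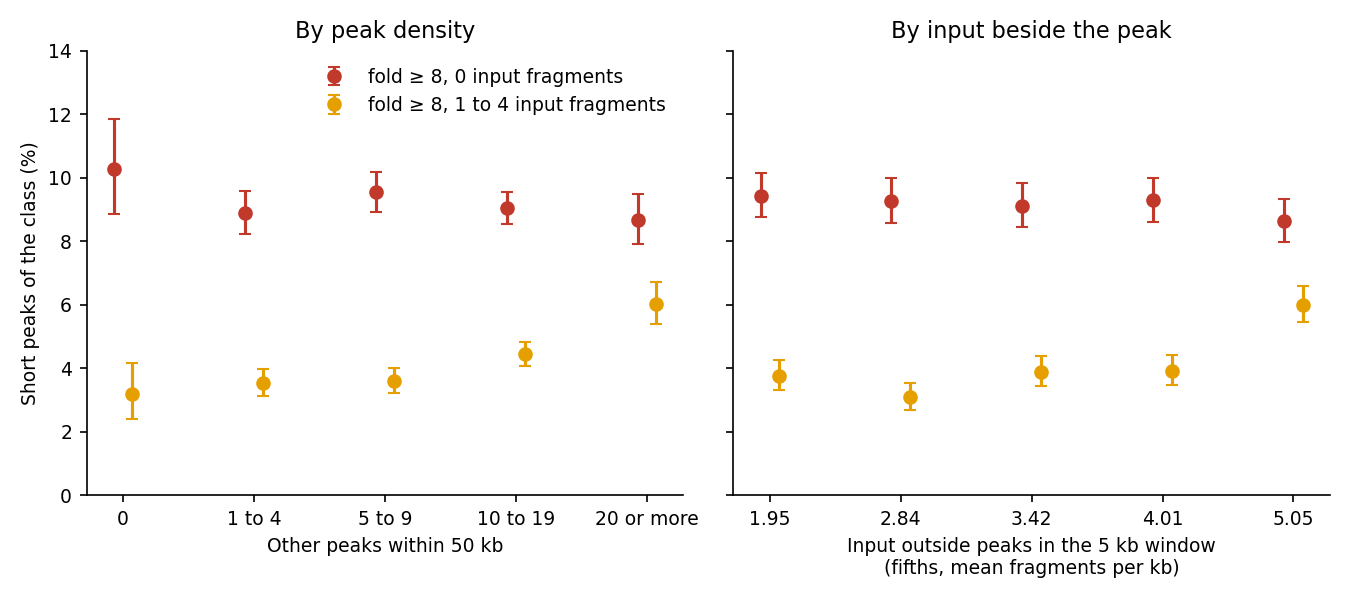
Share of short autosomal peaks that are high-fold peaks without input fragments (red) and with 1 to 4 input fragments (orange), by the number of other peaks within 50 kb (left) and by the input density outside peaks in the surrounding 5 kb (right, 5 classes of equal size named by their mean), with exact 95% intervals. The red shares stay between 8.63% and 10.3%, and the orange shares are highest in the last class of each panel, at 6.03% and 6.00%.

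High-fold peaks lay next to one another about as often as short peaks at large. The nearest other short peak was a high-fold peak for 590 of them (12.9%, 12.0 to 13.9) and for 4093 of the other short peaks (13.8%, 13.4 to 14.2), against 13.4% of short peaks in the set. The nearest peak of any width had a median fold of 4.37 beside both sets, and it reached 8 for 11.9% of both (11.0 to 12.9 beside high-fold peaks, 11.5 to 12.3 beside the others), against 11.6% of all autosomal peaks. In 100 kb bins, 2931 high-fold peaks (64.2%) were the sole member of their bin, and members lay in 3663 of the 11511 bins that hold a short autosomal peak (31.8%). No such count is given here for other short peaks, so the bin values say nothing on whether members are scattered or grouped.

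No bin held more than 5 high-fold peaks, and 5 bins reached that number. The bin chr15:76200001-76300000 held 5 among 11 short peaks, all without input fragments and with 14 to 18 hMeDIP fragments. The bin chr17:27700001-27800000 held 5 among 13 short peaks, again all without input fragments, with 13 to 17 hMeDIP fragments. In both, the members had fewer hMeDIP fragments than or as many as the median short peak (18). In chr2:119100001-119200000 it was 5 of 9 short peaks, 3 of them without input fragments, and in chr3:136300001-136400000 5 of 8, 2 of them without. The bin chr16:94800001-94900000, with 5 of 12, was the densest in peaks of any width, at 30, and its members reached 40 hMeDIP fragments. The hMeDIP to input ratio of the whole bin was above 1 in all 5, lowest on chromosome 15 at 2.03 (1.80 to 2.29) and highest on chromosome 17 at 3.58 (3.16 to 4.08).

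All autosomes contributed. The share of short peaks in the high-fold set was lowest on chromosome 1, at 11.5% (247 of 2145, interval 10.2 to 12.9), and highest on chromosome 11, at 15.2% (368 of 2425, interval 13.8 to 16.7). These intervals do not overlap, but both chromosomes were picked as the extremes of 19, so no difference is tested by this. Chromosomes 15 (14.9%, 13.2 to 16.8), 12 (14.8%, 13.0 to 16.7) and 17 (14.6%, 12.9 to 16.4) followed chromosome 11, with intervals that overlap those of most others. Per megabase the set ran from 1.25 to 3.02 members, with a median of 1.85. Across the 19 autosomes the share in the set and the ratio of hMeDIP to input of the chromosome had a Spearman's rho of 0.356, as a description over chromosomes that share both libraries.

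The 10 members with the highest lower bound of the ratio interval were chosen by those same counts, as examples of the strongest. A lower bound of 3 or more was reached by 1855 members and 29 other short peaks, 5.52% of all short peaks. Coordinates are 1-based on mm9. Of the 10, 9 had no input fragment, and their hMeDIP counts were between 36 and 55. The first, chr9:114875038-114876036 (999 bp), had 46 hMeDIP fragments and 0 input fragments, a lower bound of 8.72, with the nearest other peak 6.90 kb away. Its fold was 9.78 with the input beside the peak.

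Next came 4 peaks with 40 hMeDIP and 0 input fragments and a lower bound of 7.54. They were chr10:18037266-18038097, chr15:95734658-95735402, chr5:117272613-117273524 and chr6:88673789-88674348. The peak on chromosome 6 was the narrowest of the 10, at 560 bp, with an hMeDIP density of 71.4 per kb, and its fold was 11.7 with the input beside it. The peak on chromosome 15 lay 88 bp from its neighbour among 27 other peaks within 50 kb. The peak on chromosome 5 was the one with the widest gap, 11.5 kb, and with 2 other peaks within 50 kb.

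The rest of the 10 were chr2:172987701-172988549 (39 hMeDIP and 0 input fragments, lower bound 7.34), chr16:94847221-94848206 (37 and 0, lower bound 6.94), chr7:151506898-151507855 (37 and 0, lower bound 6.94), chr18:55137008-55137899 (55 and 1) and chr19:16263620-16264463 (36 and 0, lower bound 6.75). The peak on chromosome 18 was the one with an input fragment, and its ratio was 40.04 with an interval of 6.89 to 1610. It lay 47 bp from a peak of 2325 bp that itself had a fold of 13.2. Of the 10 peaks, 4 lay within 500 bp of another peak. The sequence beside the peak allowed a fold for 8 of them, and 3 of those 8 (on chromosomes 9, 6 and 5) kept a fold of 8.

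The lowest fold in the set was 8.01, reached with 21 hMeDIP fragments and 1 input fragment by 349 members, among them chr1:4804754-4805699, chr1:7133693-7134585 and chr1:26545631-26546374. The highest folds outside it were 7.83 with 42 hMeDIP and 3 input fragments, at chr12:83526740-83527612 and chr3:26383401-26384371, and 7.77 with 31 and 2, at chr1:121808635-121809614. Folds of 8 to 9 were held by 788 members, and folds of 7 to 8 by 1178 other short peaks.

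The 3 members farthest from any other peak lay in sequence with few peaks. The peak chr14:3651319-3651810 was 4.99 Mb from the nearest other peak. It had 22 hMeDIP fragments and 1 input fragment, which was the sole input fragment in its 5 kb window, and no hMeDIP fragment lay outside the peak there. The peak chr14:83975953-83976476 was 3.06 Mb from the nearest other peak, with 14 hMeDIP and 0 input fragments, a lower bound of 2.41, and 19 input fragments beside it in 5 kb. The peak chr2:97262258-97262929 was 2.87 Mb away, with 13 and 0, a lower bound of 2.22, and 8 input fragments beside it. Among all high-fold peaks, 220 (4.82%, 4.22 to 5.48) were more than 50 kb from another peak, and among the other short peaks 1404 (4.74%, 4.51 to 4.99) were.

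Some members stood out by their hMeDIP count, and these were chosen after their values were seen. The peak with most hMeDIP fragments of the set was chr16:91662400-91663368, which held 73 hMeDIP fragments against 3 of input. Its ratio was 17.7 (5.83 to 87.9) and its fold 8.38 with the input beside it. The one member with 4 input fragments was chr14:46162586-46163489, which held 55 hMeDIP fragments. Its ratio was 10.01 (3.70 to 38.0) and its fold 9.35 with the input beside it. The other short peak with most hMeDIP fragments, chr1:9795466-9796414, held 60 hMeDIP fragments against 9 of input, at a ratio of 4.85 (2.39 to 11.1). With the input beside it, its fold was 9.84, above that of both members.

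Within the peaks the fragments were spread similarly, with a small difference by strand. The plus strand held 49.5% (49.21 to 49.86) of hMeDIP fragments in the high-fold peaks and 50.01% (49.88 to 50.14) in the other short peaks. These intervals do not overlap. The median SD of hMeDIP midpoints within a peak was 185 bp in the high-fold set and 195 bp in the other set, and the high-fold peaks were also narrower. The authors' peak score comes with the hMeDIP peak list, so it cannot be taken as independent of the hMeDIP signal. Whether it rests on this hMeDIP library alone is not given. Its median was 78.8 (quartiles 60.7 and 107) in the high-fold set and 64.3 (55.96 and 79.7) in the other set. By kind of high-fold peak, the median score was 66.6 in those without input fragments and 112 in those with 1 to 4. Their ranges overlapped, at 50 to 358 and 50.35 to 472. The rule asks for more hMeDIP fragments in the peaks with 1 to 4 input fragments, so this difference cannot be taken as independent of the rule.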

How the data were processed

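A position file for hMeDIP, another for input and the hMeDIP peak list were used. The deposited position files give each 350 bp stretch with a count, read here as 1 fragment and its number of reads. Bowtie 1.0.0, CASAVA and the build mm9 appear in the submitters' processing notes. MACS made the peaks, per the file headers, and the authors give each peak a score, which starts at 50 in the list. For the caller, its version, settings and control were not given in the sources used here, nor whether the peaks were called on this hMeDIP library alone.

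Fragments were counted by midpoint with Python 3.11.15, numpy 2.4.6, pandas 2.3.3 and scipy 1.17.1, and figures drawn with matplotlib 3.10.9. Ratios are shares of all fragments of each library, with exact conditional binomial intervals. Counting and intervals were tested on simulated data. A list of genes fixed for kidney, sequence content and motifs were not analysed here, as no mm9 genome or annotation was used. The named regions follow a rule: the 10 highest lower bounds, the 3 nearest on each side of the fold of 8, the 3 farthest from other peaks and the fullest 100 kb bins, with tied bins kept and tied peaks taken in order of position. The members, lists and rules were chosen with earlier results of these data known.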

Additional observations from a re-analysis of the deposited data

Results flagged for a closer look

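The comparisons above do not use the reads at each position. In the high-fold peaks 2.09% (2.0 to 2.19) of hMeDIP positions carried at least 2 reads, and 2 of 1628 input positions did (0.123%, 0.0149 to 0.443). By kind, the hMeDIP share was 1.84% (1.72 to 1.95) in the high-fold peaks without input fragments and 2.45% (2.30 to 2.61) in those with 1 to 4. In the other short peaks the shares were 1.84% (1.81 to 1.88) for hMeDIP and 0.250% (0.217 to 0.288) for input. No hMeDIP position in either set held more than 4 reads.

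Chromosome X lies outside the rule. Of its 232 peaks under 1000 bp, 63 (27.2%, 21.5 to 33.4) had a fold of 8 or more, against 13.4% on the autosomes, and 58 of the 232 (interval 19.6% to 31.1%) held no input fragment. Input outside peaks in the 5 kb around these peaks was 1.82 fragments per kb, against 3.47 around all short autosomal peaks. Their hMeDIP density was 20.7 fragments per kb, against 24.1.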

How the results depend on the processing

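The size of the set depended on the settings, and the cause was not tested beyond what each setting's construction shows. It was 4562 under the main rule. It was 8221 with a pseudocount of 0.5, 0 with one of 5 (so that no other value exists there), 8793 scaled to the fragments outside peaks, 1958 with fragments that overlap by 1 bp, 8828 at a fold of 6 or more, 2451 under 800 bp, 18 with at least 3 input fragments, 1884 by a lower bound of the interval of 3 or more, 304 with the input of the 5 kb window and 689 with the input outside peaks there. This last setting was added after seeing the data. With 150 bp fragments 4493 peaks passed, of which 3403 were members of the main set. The share of the set without input fragments (68.4%) depended on the settings too. It was 38.0% with the pseudocount of 0.5, 35.5% scaled outside peaks, 71.1% weighted by reads and 52.7% with overlapping fragments. It was 35.3% at a fold of 6, 90.7% at a fold of 10, 84.3% under 800 bp and 72.0% by the lower bound. With the 5 kb input it was 17.8%, and with the input outside peaks 6.10%.

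The pooled ratio in the set was 40.4. It was 20.4 with the pseudocount of 0.5, 24.1 scaled outside peaks, 43.8 weighted by reads, 29.1 with overlapping fragments, 18.1 at a fold of 6, 129 at a fold of 10 or more, 73.3 under 800 bp, 12.0 with at least 3 input fragments, 43.2 by the lower bound, 12.0 with the 5 kb input and 6.47 with the input outside peaks. The value scaled outside peaks is a ratio of shares of the fragments outside peaks, so its scale differs from that of the others.

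The hMeDIP density of the set over that of the other short peaks (1.08) stayed above 1, under rules that all use the hMeDIP count. In that order of settings it was 1.04 (pseudocount), 1.07 (scaled outside), 1.09 (overlap), 1.07 (fold of 6), 1.03 (fold of 10), 1.05 (under 800 bp), 2.22 (at least 3 input fragments), 1.21 (lower bound), 1.69 (5 kb input) and 1.42 (input outside peaks). Under 800 bp and with at least 3 input fragments, the other short peaks were limited in the same way, also for the input density below. With the input outside peaks, both sets were limited to peaks with at least 1000 bp of such sequence.

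The input density of the set over that of the other short peaks (0.137) was 0.242 (pseudocount), 0.272 (scaled outside), 0.129 (reads), 0.150 (overlap), 0.275 (fold of 6), 0.0425 (fold of 10), 0.0779 (under 800 bp), 0.736 (at least 3 input fragments), 0.154 (lower bound) and 0.818 (5 kb input). With the input outside peaks it reversed to 1.27, where the rule no longer uses the input in the peak.

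The ratio outside peaks in the 5 kb around the set (1.25) was 1.27 (pseudocount), 1.68 (scaled outside), 1.39 (overlap), 1.27 (fold of 6), 1.21 (under 800 bp), 1.32 (at least 3 input fragments), 1.23 (lower bound), 1.75 (5 kb input) and 2.23 (input outside peaks). The 1.68 is again a ratio of shares of the fragments outside peaks, so it cannot be set beside the 1.25 directly. The share with another peak within 10 kb (79.5%) was 81.2% (overlap), 76.6% (under 800 bp), 88.9% (at least 3 input fragments), 81.1% (lower bound) and 87.4% (input outside peaks). No paired analysis was possible because each group has 1 library. Depth limits single peaks: a short peak holds a median of 2 input fragments.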
